A study of Mus musculus with 6 samples.

Results

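The genes described here fold and clear proteins in the endoplasmic reticulum (ER) or carry the integrated stress response. The 34 genes were taken from a list, and all 34 are rows of the deposited table of 13341 genes. They comprise 15 ER folding genes (chaperones, lectin chaperones and protein disulphide isomerases), 4 genes of ER-associated degradation, 4 stress sensors and factors, Atf4, and 10 genes known to respond to ATF4. The list goes by known roles, and no measured value enters its rule. Its genes were nonetheless chosen with earlier results of these data known. Cultured mouse hepatic stellate cells, which store vitamin A in the healthy liver and make collagen once activated, were labelled Nbr1 knock-out (3 libraries) or wild type (3 libraries). Nbr1 encodes a selective autophagy receptor, and p62, the product of Sqstm1, is another. No strain, animal age, Cre driver or deletion design is stated, and both groups were kept for 4 days in medium with 10% fetal bovine serum, glutamine and antibiotics under basal conditions with no stressor added. The design text calls the replicates biological, and no label says whether they came from separate animals or cultures, so a p-value measures the spread between these libraries.

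Proteins that enter the ER are folded by the chaperone BiP and its partners, by lectin chaperones that bind sugar chains, and by disulphide isomerases. When folding lags, the sensors ATF6, IRE1 and PERK act: ATF6 and the IRE1-made form of XBP1 switch on chaperone and degradation genes, while PERK phosphorylates the initiation factor eIF2alpha. That phosphorylation, which other kinases also bring about when amino acids are short, slows translation yet favours that of Atf4 messenger RNA, and ATF4 then switches on genes of amino acid supply and stress control. Stellate cells that secrete collagen pass large amounts of protein through the ER.

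Promoter sequences are shown first because textbook elements are known for the 2 gene groups compared below, though not all of these genes held one. RefSeq promoter windows of build GRCm38.p6, from 250 bases before to 50 bases after each gene start, matched 30 of the 34 genes. They were searched on both strands for CCAAT, then 9 bases of any kind, then CCACG (the ER stress response element, ERSE, bound by ATF6), for ATTGG, any 1 base, then CCACG (ERSE-II) and for TGACGTGG (the unfolded protein response element, UPRE). The fourth motif was TGATGNAA, the core of the C/EBP-ATF response element (CARE) through which ATF4 acts. The first 3 share the letters CCACG on one strand or the other, and no matches overlapped in these genes. Of 13 ER folding genes with a window, 8 held ERSE or ERSE-II and 0 held CARE. Of 9 ATF4-responsive genes, 0 held any of the 3 ER motifs and 4 (Atf3, Trib3, Chac1 and Asns) held CARE. Among all 32851 RefSeq promoter windows, 0.119% held ERSE, 0.0365% held ERSE-II, 0.676% held UPRE and 3.97% held CARE. A match is a run of letters and not a measured binding site, and these genes were listed for roles that such motifs helped to define. The ERSE matches are shown in motif orientation, with the fixed letters in capitals, so that the variable spacer can be compared between genes.
Hspa5: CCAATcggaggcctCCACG
Hsp90b1: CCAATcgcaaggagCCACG
Hsp90b1: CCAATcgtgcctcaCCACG
Dnajc3: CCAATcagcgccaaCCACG
Creld2: CCAATtgaggctcgCCACG
Calr: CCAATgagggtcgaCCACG
Canx: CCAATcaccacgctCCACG
Pdia6: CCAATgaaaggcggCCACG
Syvn1: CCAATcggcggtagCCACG

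**Figure D1:**
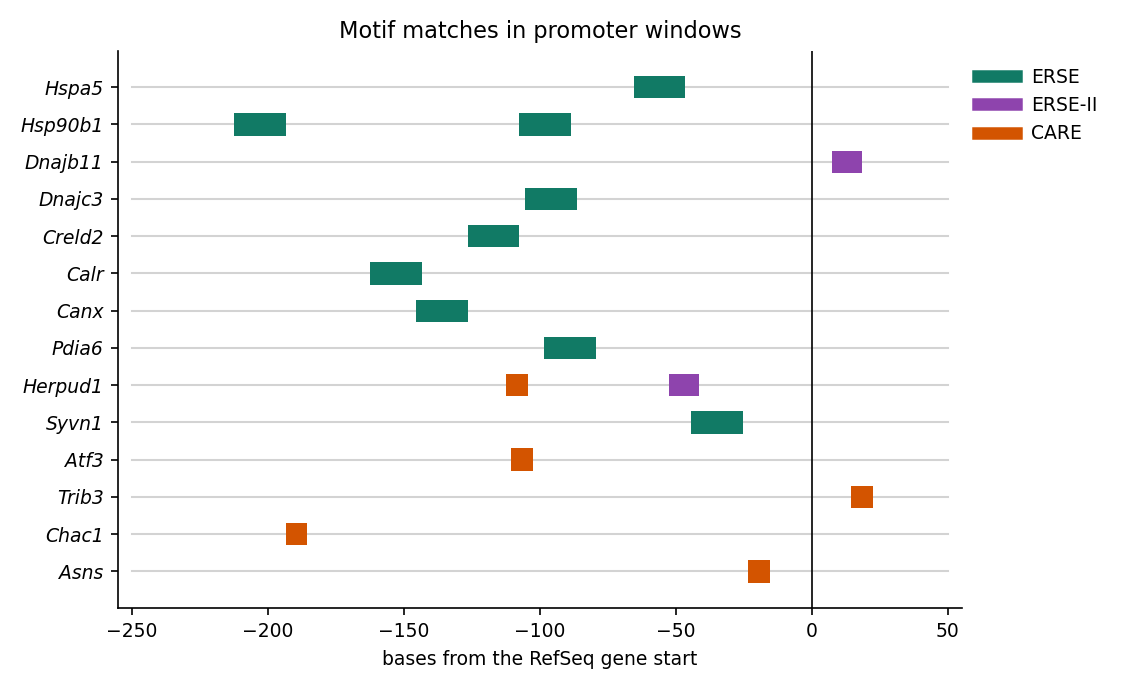
Position of each motif match (coloured bars, in bases from the RefSeq gene start, which is the vertical line) in the promoter windows of the 14 genes with a match. ERSE lies in 8 of these windows, ERSE-II in those of Dnajb11 and Herpud1, and CARE in those of Herpud1, Atf3, Trib3, Chac1 and Asns.

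The whole windows of 5 genes are printed with motif matches in capitals, because 2 of these genes passed the test below, 2 came near it and Hspa5 is the standard ERSE gene. Herpud1 (chr8:94386179-94386478, plus strand) was the one gene with both kinds of motif, ERSE-II at bases -52 to -42 and CARE at -112 to -105. Dnajb11 (chr16:22857595-22857894, plus strand) held ERSE-II at bases 8 to 18. Hspa5 (chr2:34771840-34772139, plus strand) held ERSE at -65 to -47. Trib3 (chr2:152344011-152344310, minus strand) held CARE at bases 15 to 22, and Chac1 (chr2:119350992-119351291, plus strand) at -193 to -186. In Herpud1, Trib3 and Chac1 the CARE letters lie on the opposite strand and therefore read as the reverse complement.
Herpud1: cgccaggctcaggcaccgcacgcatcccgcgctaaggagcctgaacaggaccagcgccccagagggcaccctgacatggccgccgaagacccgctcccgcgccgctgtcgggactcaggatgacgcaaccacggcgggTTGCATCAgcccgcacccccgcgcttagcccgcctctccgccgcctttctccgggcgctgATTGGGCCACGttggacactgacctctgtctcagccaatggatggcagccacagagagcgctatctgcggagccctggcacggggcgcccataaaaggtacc
Dnajb11: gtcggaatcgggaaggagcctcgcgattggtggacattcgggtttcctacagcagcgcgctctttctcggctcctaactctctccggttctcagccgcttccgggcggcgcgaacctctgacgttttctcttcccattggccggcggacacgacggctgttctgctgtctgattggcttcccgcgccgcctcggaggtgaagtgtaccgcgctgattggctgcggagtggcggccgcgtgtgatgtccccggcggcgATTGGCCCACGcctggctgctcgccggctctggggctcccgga
Hspa5: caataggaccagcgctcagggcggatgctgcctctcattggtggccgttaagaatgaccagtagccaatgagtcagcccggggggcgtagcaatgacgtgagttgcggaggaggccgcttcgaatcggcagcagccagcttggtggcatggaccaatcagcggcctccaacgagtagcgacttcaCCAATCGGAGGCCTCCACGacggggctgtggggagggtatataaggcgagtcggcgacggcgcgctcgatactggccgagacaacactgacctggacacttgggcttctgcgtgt
Trib3: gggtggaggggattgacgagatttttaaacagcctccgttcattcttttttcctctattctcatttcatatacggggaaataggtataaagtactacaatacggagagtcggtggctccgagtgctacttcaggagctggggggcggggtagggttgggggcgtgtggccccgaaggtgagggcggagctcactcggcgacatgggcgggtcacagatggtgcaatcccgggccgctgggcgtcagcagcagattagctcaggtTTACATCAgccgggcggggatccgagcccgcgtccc
Chac1: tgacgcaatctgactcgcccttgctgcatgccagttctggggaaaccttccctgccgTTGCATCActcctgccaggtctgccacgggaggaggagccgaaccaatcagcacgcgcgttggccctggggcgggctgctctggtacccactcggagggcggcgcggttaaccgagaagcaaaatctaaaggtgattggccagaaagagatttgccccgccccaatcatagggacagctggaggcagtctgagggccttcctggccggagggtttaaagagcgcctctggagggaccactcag

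Expression was read from transcript ends, so a value does not grow with transcript length. Libraries held 1648800 to 2276529 reads in knock-out cells and 1508518 to 2383879 in wild-type cells, of which the 34 genes took 0.674% to 0.699% and 0.665% to 0.76%. The libraries were also divided into 2 sets by their deviations from group means over the other genes. One set held knock-out libraries 1 and 3 with wild-type library 1, and the other knock-out library 2 with wild-type libraries 2 and 3. Group means were removed first, so that the sets cut across genotype is a product of the method. The sets lay apart without overlap for 15 of the 32 tested genes of the list (46.9%) and for 40% of all 10540 tested genes. That 40% was counted over nearly the same genes that defined the sets. Nbr1 had 203.7, 188.2 and 175.6 normalized counts in knock-out and 204.1, 278 and 288.7 in wild-type cells (log2 change -0.43, adjusted p = 0.22, limma), and transcript ends do not check a deletion elsewhere in the gene. Sqstm1 had 817.4, 644.6 and 859.1 in the libraries labelled knock-out and 24, 10.9 and 12.7 in those labelled wild type, 48.7-fold apart (limma, adjusted p = 0.000337). Its level was thus close to 0 in all 3 libraries with the wild-type label, for which no change in Sqstm1 is stated. Neither gene checks the genotype labels, and every direction below is relative to libraries with that low Sqstm1 level. Of 22 stellate cell markers, 15 were rows of the table, and their summed level was 14868.1 to 18917.5 in knock-out and 6477.3 to 8524 in wild-type cells. Lrat, Des, Reln, Hgf, Ngfr, Hhip and Vipr1 were not among the rows, and the sum is carried mostly by Col1a1, Col1a2, Col3a1 and Vim. Of the 14 markers tested 6 rose (42.9%, against 4.67% of all tested genes) and 13 had positive changes (92.9%, against 48.9%). The exception was the stellate factor Gata4, at 5.4, 0.9 and 8.3 against 21.3, 23.5 and 17.3 (log2 change -2.16, limma adjusted p = 0.0906), and Gfap was at most 3.6 in any library. Hepatocyte markers summed to at most 43.9 in knock-out and 48.1 in wild-type cells (4 of 9 genes present), macrophage markers to 14.2 and 14.7 (2 of 10, Ptprc and Adgre1 absent), and endothelial markers to 67 and 146.8 (2 of 9, Pecam1 and Cdh5 absent). Cholangiocyte and epithelial markers (5 of 7, Epcam absent) summed to 575.8 to 633.6 in knock-out and 76.4 to 89.4 in wild-type cells, mostly Sox9 and Cdh1 in knock-out and Krt19 in wild-type cells. The part of these differences in the results below was not tested, and fewer cells of a type and less RNA per cell cannot be told apart in bulk RNA.

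Genes were called at a Benjamini-Hochberg adjusted p under 0.05 in limma on log2(normalized count + 1), fitted over all 10540 genes with a normalized count of at least 10 in at least 3 libraries. Atf3 and Sesn2 fell below that minimum, which left 32 genes. Of these, 3 rose in knock-out cells (Herpud1, Sel1l and Trib3) and 0 fell, or 9.38%. Of all tested genes 6.92% were called, 4.67% higher and 2.25% lower. The groups did not overlap for 10 of the 32 (31.2%), 7 higher and 3 lower, against 30.1% of all tested genes (16.5% higher and 13.6% lower). An unadjusted p under 0.05 was found for 9 of the 32 (28.1%), against 22.6% of all tested genes. All 3 shares lay near the background, so the list as a whole did not stand out. The median log2 change was 0.04 over the 15 ER folding genes, 0.62 over the 8 tested ATF4-responsive genes and -0.01 over all tested genes. With no minimum on values, so that Atf3 and Sesn2 also counted, the ATF4-responsive median was 0.60 over 10 genes.

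**Figure D2:**
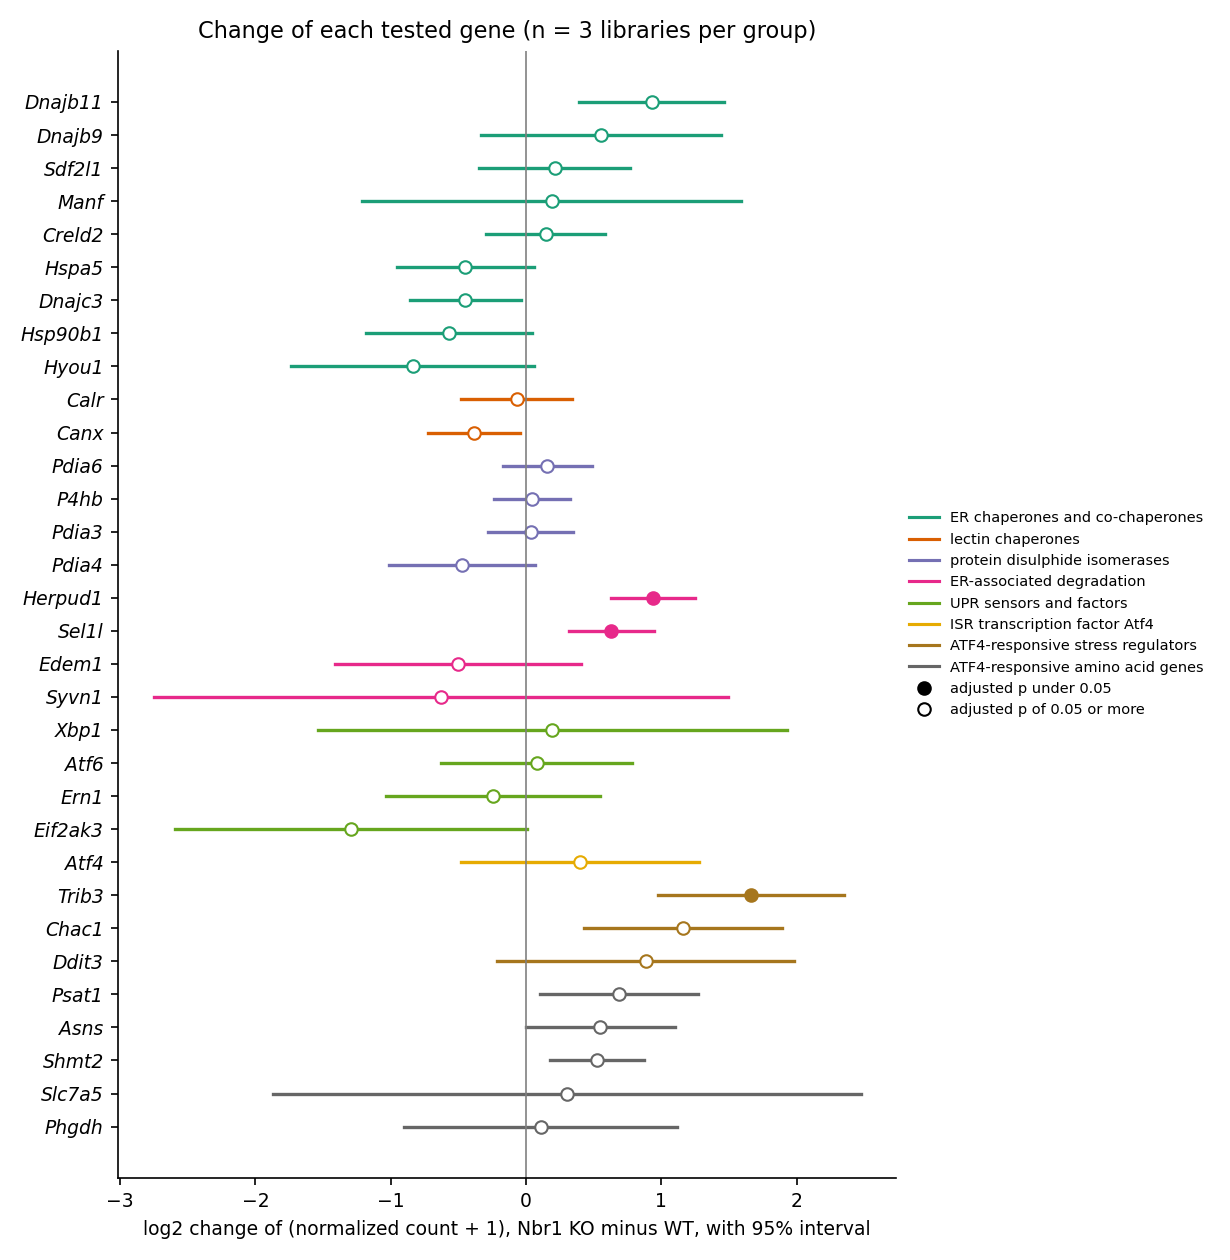
Log2 change of each of the 32 tested genes, knock-out minus wild type, with its 95% interval from limma (n = 3 libraries per group), grouped by role. Filled points mark the 3 genes past the threshold (Herpud1, Sel1l and Trib3), and the 8 ATF4-responsive genes lie right of 0 in this fit, where Phgdh turns negative in edgeR, in DESeq2 and without wild-type library 1, and Slc7a5 does so when either wild-type library 1 or knock-out library 2 is left out. ER folding genes lie on both sides.

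Among the ER chaperones and co-chaperones, 0 of 9 passed the limma test and the genes went both ways. Hspa5, which encodes BiP, the main Hsp70 of the ER, stood at 1681, 1504.9 and 1959.1 normalized counts in knock-out and 3156.6, 1995.4 and 2002.9 in wild-type cells. All 3 knock-out libraries lay below the lowest wild-type library, by little, and wild-type library 1 stood far above the rest. The log2 change was -0.45 (SE 0.21, adjusted p = 0.278). It was -0.23 without wild-type library 1 (adjusted p = 0.212). Hsp90b1, the ER form of Hsp90, had 1033.8, 1841 and 1019.3 against 1538.3, 1990.3 and 2068.3 (log2 change -0.57, SE 0.26, adjusted p = 0.256). Knock-out library 2 lay among the wild-type values, so the groups overlapped. Dnajc3, a J-domain partner of BiP, had 289.7, 329.2 and 287.2 against 330.9, 450.1 and 468.5 (log2 change -0.45, SE 0.17, adjusted p = 0.187). Its groups did not overlap, but knock-out library 2 and wild-type library 1 were nearly equal. Hyou1, a nucleotide exchange factor for BiP, was scarce, with 11.8, 19.8 and 16.6 against 17.3, 36.1 and 38.1 (50 reads in knock-out and 98 in wild-type cells over the group; log2 change -0.84, adjusted p = 0.252). Wild-type library 1 lay among the knock-out values.

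The J-domain gene Dnajb11, whose protein binds unfolded chains and hands them to BiP, went the other way from Hspa5. It had 170.2, 220.9 and 185.1 normalized counts in knock-out cells and 74.7, 118.4 and 112.6 in wild-type cells. Every knock-out library exceeded every wild-type library, and the means differed 1.88-fold, with the lowest value in wild-type library 1. The log2 change of 0.93 (SE 0.22) missed the limma threshold (adjusted p = 0.0585) and edgeR's (adjusted p = 0.0569) and passed in DESeq2 (adjusted p = 0.0141). Without wild-type library 1 it was 0.72 and passed (adjusted p = 0.0213). The other 4 had intervals that spanned 0, as had Hspa5, Hsp90b1 and Hyou1 above. Of the 4, Dnajb9, a BiP co-chaperone induced by XBP1, had 39.1 ± 13.2 against 26.5 ± 9.2 (mean ± SD, n = 3 each, here and below). Sdf2l1, a partner of Dnajb11, had 56.8 ± 10.1 against 49.1 ± 9.9. Creld2, an ER protein related to disulphide isomerases, had 99.9 ± 11.7 against 90.3 ± 12.2. Manf, a secreted factor kept in the ER, had 179.5 ± 75.8 against 176.4 ± 103.9. Manf ran from 58.7 to 255.3 within wild-type cells alone, with wild-type library 1 lowest, so its interval of -1.21 to 1.59 (log2) allows a large change either way.

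Among the lectin chaperones and disulphide isomerases, 0 of 6 passed limma, edgeR or DESeq2. Canx, which encodes the membrane-bound lectin calnexin, had 1210.3, 1133.6 and 1202 normalized counts in knock-out cells and 1825.1, 1483.9 and 1355.5 in wild-type cells. The groups did not overlap, and the log2 change was -0.38 (SE 0.14, adjusted p = 0.171). Its soluble relative Calr, calreticulin, averaged 1116.1 ± 61.2 against 1187.8 ± 250.3 with overlapping groups. Pdia3, the isomerase that works with both lectins, averaged 889.9 ± 88.2 against 867.1 ± 68.3. P4hb, which is also a subunit of the collagen prolyl hydroxylase, averaged 1261.6 ± 75.7 against 1223.5 ± 88. For these 2 isomerases the 95% interval of the log2 change lay within -0.28 to 0.35. Pdia6 averaged 837 ± 34.4 against 754.8 ± 99.1 and Pdia4 189 ± 26.5 against 268.2 ± 74.8, Pdia4 with its top value, 352.2, in wild-type library 1. Of these 6 genes Canx had an unadjusted p under 0.05. Over all 15 ER folding genes 0 passed limma, 0 passed edgeR and 1 passed DESeq2, which called 9.02% of all tested genes. An unadjusted p under 0.05 was found for 3 (20%, against 22.6% of all tested genes). Of these, Dnajb11 had a positive change, and Dnajc3 and Canx had negative ones. Their summed level was 9373.9 ± 285.6 in knock-out and 10998.1 ± 731.6 in wild-type cells, a sum in which Hspa5 weighs most.

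**Figure D3:**
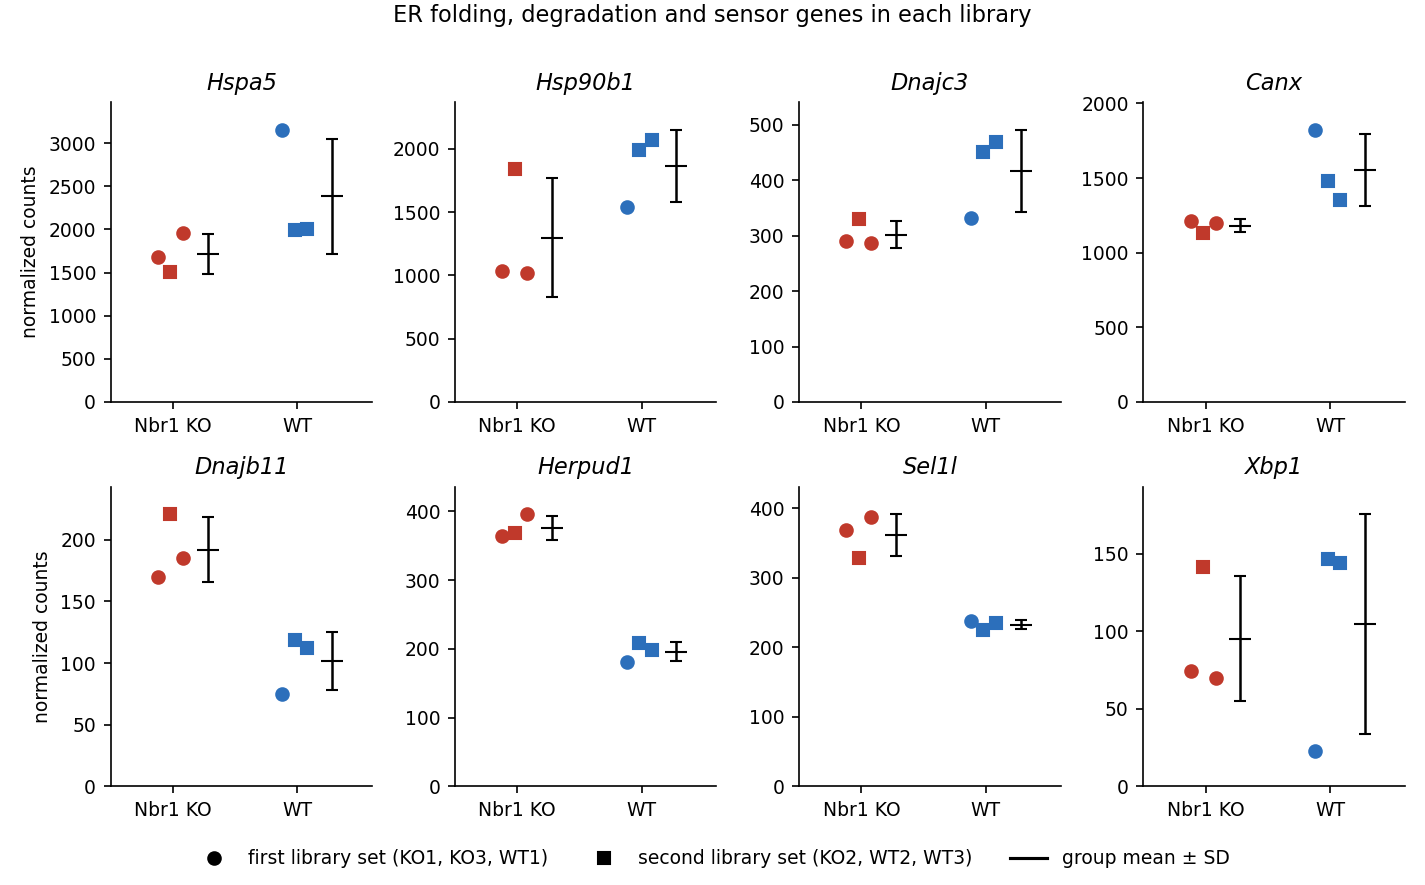
Normalized counts of 8 ER genes in each library, knock-out left and wild type right, with the group mean ± SD (n = 3 each). Marker shape shows the library set. Herpud1 and Sel1l separate the groups with little spread, while Xbp1 and Hsp90b1 follow the sets.

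In ER-associated degradation, which draws misfolded proteins back to the cytosol for the proteasome, 2 of 4 genes rose. That was 50% of a very short list, against 4.67% of all tested genes. Of 18 further degradation genes, described below, 0 passed. Herpud1 encodes an ER membrane protein that helps to assemble the retrotranslocation complex, and its promoter was the one with both ERSE-II and CARE. It had 363.9, 368.7 and 396.3 normalized counts in knock-out cells and 181.4, 208.3 and 198.8 in wild-type cells. The lowest knock-out value was well above the highest wild-type value, and values within each group were close. The mean was 1.92-fold higher (log2 change 0.94, SE 0.13, adjusted p = 0.00886). The change was 1.06 within knock-out libraries 1 and 3 and wild-type library 1 and 0.85 within the other 3 libraries. Herpud1 also passed in edgeR and DESeq2 (adjusted p = 0.00864 and 1.05e-05), but leaving out knock-out library 1 or 3 ended the call (adjusted p = 0.0705 or 0.065).

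Sel1l encodes the adaptor that links substrates to the ubiquitin ligase of the same complex. It had 368.4, 328.3 and 388 normalized counts in knock-out cells and 237.5, 225.1 and 235.2 in wild-type cells. Again the groups lay apart, with the wild-type values close together. The mean was 1.55-fold higher (log2 change 0.63, SE 0.13, adjusted p = 0.036). The call held in edgeR and DESeq2, and without wild-type library 1 (adjusted p = 0.0145). It was lost without any other single library (adjusted p from 0.0694 to 0.197), with the replicate block (adjusted p = 0.102) and without the variance trend. The ligase itself, Syvn1, did not pass the test: it had 30.8, 141 and 35.6 against 22.7, 165.4 and 154.3, a split by library set (adjusted p = 0.745). Edem1, which passes misfolded glycoproteins to this pathway, had 120.4, 170.2 and 90.2 against 101.4, 217.5 and 239.7 (adjusted p = 0.511), and its log2 change passed downward without wild-type library 1 (adjusted p = 0.0472).

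None of the 4 sensors and factors passed limma, edgeR or DESeq2, 0 had an unadjusted p under 0.05, and all but Ern1 followed the library sets. Xbp1 had 74.2, 141.8 and 70 normalized counts in knock-out cells and 22.7, 147 and 144.4 in wild-type cells. Values near 140 occurred in both groups and the lowest was wild-type library 1, so the log2 change of 0.19 had an interval of -1.54 to 1.93. The group means ran the other way (95.3 against 104.7), as did the change in edgeR, in DESeq2 and without wild-type library 1. These counts do not tell the spliced from the unspliced form. Eif2ak3, which encodes PERK, had 13.6, 37.8 and 10.7 against 25.3, 57.9 and 61.7 (68 and 156 reads over the group, log2 change -1.29, SE 0.55, adjusted p = 0.223). It passed, downward, without wild-type library 1 (adjusted p = 0.0487). Within each library set knock-out stood lower, by 1.01 and 0.65 on the log2 scale (first the set with wild-type library 1). Atf6 averaged 89.4 ± 21.6 against 85.9 ± 25.9, and Ern1, which encodes IRE1, 35.5 ± 6.5 against 44.2 ± 18.8.

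Atf4 showed the library sets more than the genotype. It had 1147.8, 859.5 and 1310 normalized counts in knock-out cells and 1498.3, 619.8 and 608.3 in wild-type cells. Wild-type library 1 was the highest of the 6, and the other 2 wild-type libraries were the lowest. The log2 change was 0.40 (SE 0.37, adjusted p = 0.6). It was 0.83 and passed without wild-type library 1 (adjusted p = 0.0194), and it was -0.29 within knock-out libraries 1 and 3 and wild-type library 1, against 0.48 within the other 3 libraries. The direction thus differed between the sets. Since ATF4 output is set mainly by translation, its messenger level is only one part of its activity.

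The stress regulators downstream of ATF4 had positive changes of unequal size, and 1 of 3 tested genes passed (33.3%, against 6.92% of all tested genes). With 3 genes that share says little. Trib3 encodes a pseudokinase that restrains the same response, and it had 44.4, 38.7 and 46.3 normalized counts in knock-out cells and 17.3, 13.4 and 9.1 in wild-type cells. The lowest knock-out library was above the highest wild-type library by more than the range of either group. The ratio of means was 3.24 (133 and 39 reads over the group, log2 change 1.66, SE 0.29, adjusted p = 0.0189). The change was 1.34 within the set of wild-type library 1 and 1.72 within the other set. Trib3 passed in edgeR and DESeq2 (adjusted p = 0.0139 and 0.00128), and without wild-type library 1 (adjusted p = 0.00449), but without any other single library it did not (adjusted p from 0.0569 to 0.111). Chac1, whose enzyme breaks down glutathione, had 44.4, 30.9 and 41.5 against 22.7, 11.8 and 17.3 (120 and 50 reads over the group). Its groups did not overlap, but its log2 change of 1.16 (SE 0.31) missed the threshold (adjusted p = 0.0769), and it passed without wild-type library 1 (adjusted p = 0.0178).

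Ddit3, which encodes CHOP, the factor tied to death after lasting ER stress, also had a high value in wild-type library 1. It had 121.3, 90.2 and 136.5 normalized counts in knock-out cells and 132.1, 42.8 and 40.9 in wild-type cells. That library lay among the knock-out values, and the other 2 wild-type libraries lay below all of them. The log2 change was 0.88 (SE 0.46, adjusted p = 0.327), 1.43 without that library (adjusted p = 0.00599), -0.04 within its set and 1.09 within the other. Ddit3 overlaps Mbd6 and Mars1 in the RefSeq annotation, and the sources used do not say whether reads were counted by strand, so some of its reads may belong to these genes; Hspa5, Pdia3, Syvn1, Atf6 and Eif2ak3 also overlap genes of the table. The untested pair was scarce: Atf3, an early stress factor, had 28 reads in knock-out and 15 in wild-type cells over the group, and Sesn2, which senses leucine, had 9 and 12. Their changes could not be judged at this depth.

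Of the 5 amino acid genes none (0) passed in limma, edgeR or DESeq2. An unadjusted p under 0.05 was found for 2, Psat1 and Shmt2. All 5 had positive log2 changes in limma, but that of Phgdh was -0.05 in edgeR, -0.06 in DESeq2 and -0.38 without wild-type library 1. That of Slc7a5 was -0.66 without wild-type library 1 and -0.33 without knock-out library 2. Psat1, the aminotransferase of serine synthesis, had 1043.7, 807 and 1191.3 normalized counts in knock-out cells and 868.5, 519 and 532.1 in wild-type cells. Knock-out library 2 lay just under wild-type library 1, so the groups overlapped by that pair. The ratio was 1.58 (log2 change 0.69, SE 0.25, adjusted p = 0.16), and Psat1 passed without wild-type library 1 (adjusted p = 0.0109). Shmt2, which makes glycine in mitochondria, had 255.3, 216.6 and 236.1 against 180.1, 152.8 and 158. All knock-out values were higher, by a ratio of 1.44 (log2 change 0.53, SE 0.15, adjusted p = 0.0883), and this gene too passed without wild-type library 1 (adjusted p = 0.0227). Asns, asparagine synthetase, had 172.9, 201.1 and 154.3 against 88.1, 147.8 and 130.7. Its groups did not overlap either (ratio 1.44, log2 change 0.55, SE 0.23, adjusted p = 0.224), and here wild-type library 1 was the lowest, the reverse of Psat1.

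The remaining 2 amino acid genes mostly followed the library sets. Phgdh, the entry enzyme of serine synthesis, had 36.2, 37 and 32 normalized counts in knock-out cells and 16, 51.2 and 40.9 in wild-type cells, and its knock-out libraries lay inside the wild-type range, with means of 35.1 and 36.0 (log2 change 0.11, interval -0.90 to 1.12). Slc7a5, the leucine importer, had 40.7, 114.3 and 22.5 against 9.3, 70.5 and 80.8. Its range within each group covered most of the other (log2 change 0.30, interval -1.87 to 2.48). Phgdh and Slc7a5 were low in wild-type library 1 where Atf4, Ddit3 and Psat1 were high, so genes known to respond to the same factor did not share one order of libraries.

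**Figure D4:**
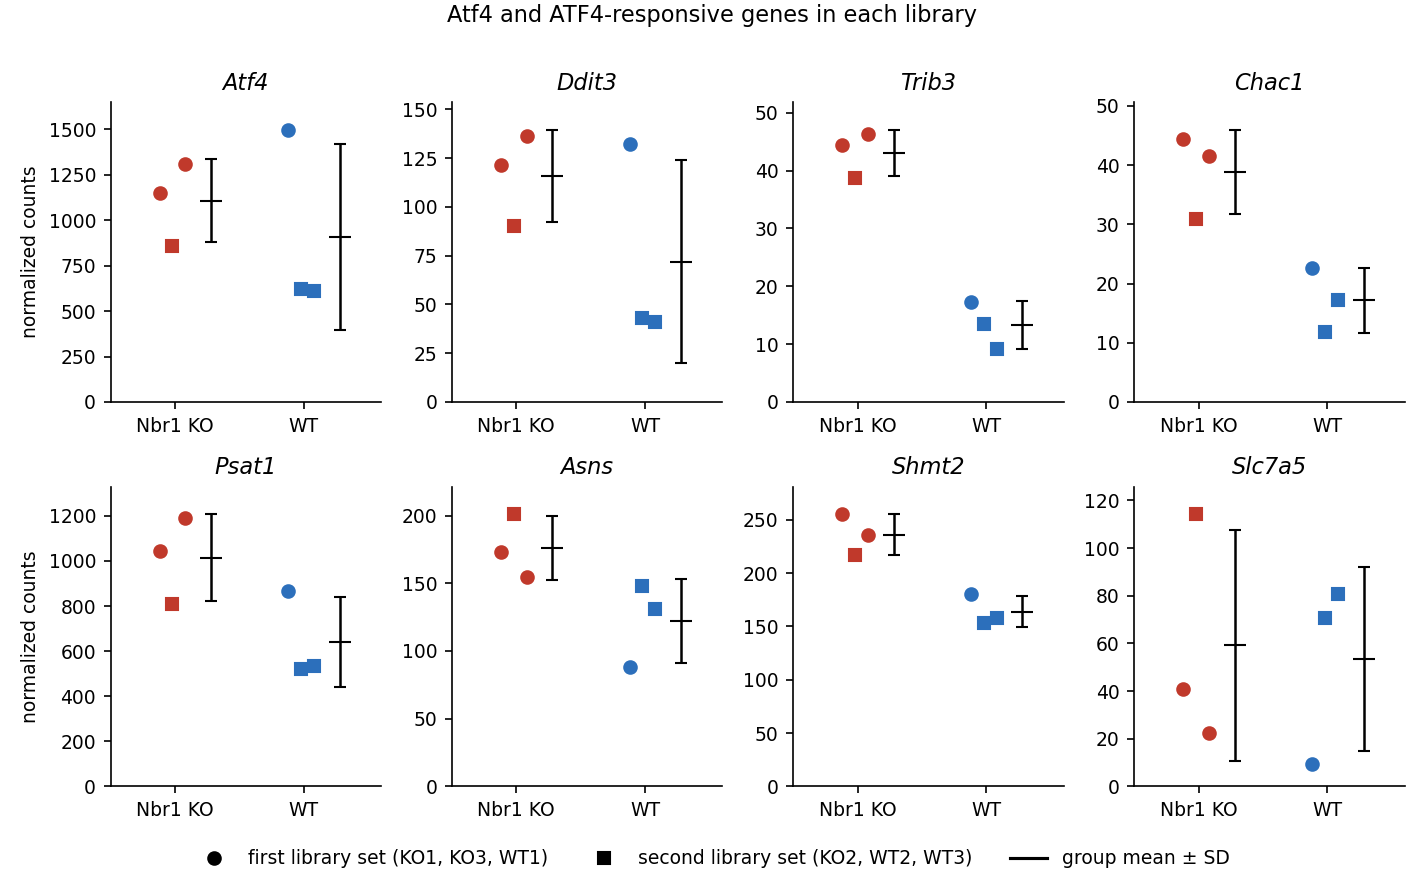
Normalized counts of Atf4 and 7 ATF4-responsive genes in each library, knock-out left and wild type right, with the group mean ± SD (n = 3 each); marker shape shows the library set. Trib3, Chac1, Asns and Shmt2 separate the groups, while wild-type library 1 is high for Atf4 and Ddit3 and low for Slc7a5.

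Set side by side, the 2 gene groups gave different pictures. In limma 1 of the 8 tested ATF4-responsive genes passed (12.5%) and 0 of the 15 ER folding genes, against 6.92% of all tested genes. The unadjusted limma p was under 0.05 for 4 of the 8 (50%) and 3 of the 15 (20%), against 22.6%. Knock-out and wild-type libraries did not overlap for 50% and 26.7% of the genes, against 30.1%. The median deviation of the 8 ATF4-responsive genes from their own means over the 6 libraries was 0.39, 0.21 and 0.43 (log2) in knock-out libraries 1 to 3 and -0.29, -0.48 and -0.42 in wild-type libraries 1 to 3. All knock-out libraries stood above all wild-type libraries. For the 15 ER folding genes it was -0.12, -0.08 and -0.01 in knock-out libraries and -0.02, 0.08 and -0.01 in wild-type libraries, with the groups overlapping. For all tested genes it stayed between 0.00 and 0.02 in knock-out and -0.02 and 0.02 in wild-type libraries. Within the set of wild-type library 1 the median log2 changes were 0.89 for ATF4-responsive and -0.01 for ER folding genes, and within the other set they were 0.60 and -0.02. The summed level of the 10 ATF4-responsive genes was 1731 ± 168.9 in knock-out and 1127.2 ± 191.9 in wild-type cells. Psat1, whose groups overlap, supplied most of it, at 1014 ± 193.9 and 639.9 ± 198.1. The summed level of the ER folding genes did separate the groups, at 9077.6 to 9647.4 in knock-out and 10318.7 to 11772.6 in wild-type libraries. No test of the difference between the groups of genes was made, since the genes had been listed with results of these data known.

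**Figure D5:**
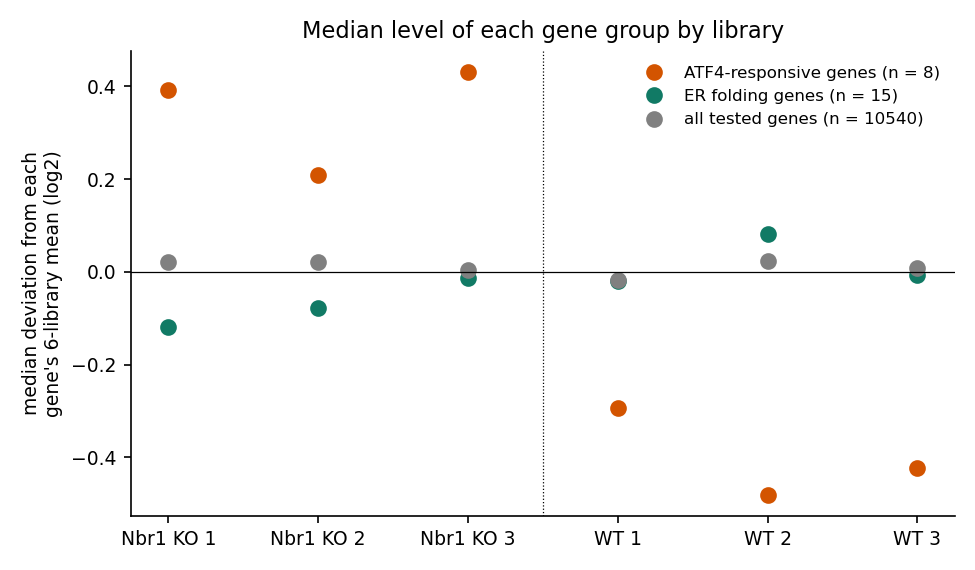
Median deviation (log2) of ATF4-responsive genes (n = 8), ER folding genes (n = 15) and all tested genes from each gene's mean over the 6 libraries, knock-out libraries left of the dotted line and wild type right. ATF4-responsive genes lie above 0 in all 3 knock-out libraries (0.21 to 0.43) and below it in all 3 wild-type libraries (-0.48 to -0.29), while ER folding genes stay between -0.12 and 0.08.

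How many genes were called depended on the libraries. Without wild-type library 1, 13 of the 32 passed (40.6%, where 21.1% of all tested genes did): Dnajb11, Herpud1, Sel1l, Atf4, Ddit3, Trib3, Chac1, Psat1 and Shmt2 up, and Hyou1, Dnajc3, Edem1 and Eif2ak3 down. With a term for the library sets 16 passed (50%, against 26.5% of all tested genes). The 10 higher ones then were Dnajb9, Dnajb11, Herpud1, Sel1l, Trib3, Chac1, Asns, Psat1, Shmt2 and Slc7a5, and the 6 lower ones Hspa5, Hsp90b1, Dnajc3, Canx, Pdia4 and Eif2ak3. In that fit 6 of 8 ATF4-responsive genes were higher and 0 lower, while among ER folding genes 2 were higher and 5 lower. The sets were drawn from these same libraries, so this fit is a description of them. Leaving out any other library left at most 1 of the 32 called (3.12% or 0), where 1.9% to 3.21% of all tested genes were called, so these counts lay near the background too.

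Of 115 further tested genes of the same pathways, 3 rose and 0 fell (2.61%), below the 6.92% of all tested genes. Of 23 tested further ATF4-responsive genes, 2 rose and 0 fell (8.7%, near that background), 15 had a positive change, and the median log2 change was 0.17. An unadjusted p under 0.05 in limma was found for 8 of them (34.8%, against 22.6% of all tested genes), with changes in both directions. In DESeq2 4 of them passed, all higher, where 9.02% of all tested genes were called. Aldh1l2, a mitochondrial folate enzyme, had 206.4, 236.4 and 180.4 normalized counts in knock-out cells and 50.7, 76.4 and 80.8 in wild-type cells, a clear gap and a 3-fold ratio (log2 change 1.59, SE 0.23, adjusted p = 0.0098), but leaving out knock-out library 1 ended the call (adjusted p = 0.0712). The lipoprotein receptor gene Vldlr had 80.6, 83.4 and 98.5 against 20, 21 and 21.8 and the groups lay far apart. Its 4.18-fold rise (log2 change 2.01, SE 0.19, adjusted p = 0.00207) passed in all 17 alternatives. Of 23 other signalling genes, 1 rose: Atf5, a factor translated under the same control as Atf4, with 341.3, 252.7 and 294.3 against 166.8, 109.2 and 81.7 (2.48-fold, log2 change 1.36, SE 0.28, adjusted p = 0.0344). Its groups lay apart, yet without any single library other than wild-type library 1 the call was lost (adjusted p from 0.0791 to 0.17).

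The 13 aminoacyl-tRNA synthetase genes, many of them ATF4 targets, had a median log2 change of 0.21, with 9 positive. In limma and edgeR 0 passed, and 4 (30.8%, against 22.6% of all tested genes) had an unadjusted p under 0.05. DESeq2, which called 9.02% of all tested genes, called 3 of these (Aars, Mars1 and Nars), all higher. Nars had 669.9, 614.5 and 602.8 normalized counts in knock-out cells and 485.6, 409.8 and 381.3 in wild-type cells (log2 change 0.57, adjusted p = 0.0619), and Aars 461.7, 346.4 and 497.2 against 306.9, 214.2 and 228.8 (log2 change 0.80, adjusted p = 0.0728). For both the groups did not overlap. Of 38 further ER folding genes 0 passed limma, edgeR or DESeq2, 7 (18.4%) had an unadjusted p under 0.05, and the median log2 change was -0.09. Those with the smallest p were Sil1, an exchange factor for BiP (104.7 ± 16.7 against 44.3 ± 32.1, adjusted p = 0.122), and Tmx1, a membrane disulphide isomerase (500.8 ± 78.8 against 334.4 ± 63, adjusted p = 0.13). Of 18 further degradation genes 0 passed any of these tools, 2 (11.1%) had an unadjusted p under 0.05, and the median was 0.02. They were Os9, a lectin of the Sel1l complex (277.7 ± 37.6 against 188.9 ± 22.3, adjusted p = 0.11), and Faf2, which recruits the extraction motor (91.9 ± 9.1 against 125.7 ± 6.9, adjusted p = 0.153).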

How the data were processed

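RNA of 6 libraries was read from transcript ends on a NextSeq 500 (75 nucleotides, single-end, from 200 ng with the QuantSeq forward kit and optional molecular identifiers), per the labels' protocols. The deposited values are a signal: the authors divided read counts by 1 factor per library, and the submitters' processing notes name DESeq2 and GRCm39. Aligner, annotation, strand and use of the identifiers are not given in the sources used here. All values were whole multiples of 1 read within 0.01, so whole reads were recovered. All 6 columns were used.

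The members and lists were chosen with earlier results of these data known. The genes named are all 34 members, Nbr1, Sqstm1, and from each further pathway list every gene past the threshold or, where none passed, the 2 with the smallest p. The main test was limma 3.58.1 (R 4.3.3, variance trend, two-sided) on log2(value + 1), the authors' scaling, with Benjamini-Hochberg adjustment over 10540 genes at 0.05. Folds are ratios of group means; log2 changes, SE and 95% intervals are from the fit. The added 1 makes the log2 changes of scarce genes smaller, while nothing is added to the values for the folds. edgeR 4.0.16 and DESeq2 1.42.0 ran on recovered reads. All 3 were run on simulated independent libraries that lacked the library sets, so that run does not measure their false calls in these data. The 2 library sets were found by average linkage on how libraries deviate from their group means, over genes other than the members. The alternatives, 17 in all, are described with their effects in the closing section. Promoters are RefSeq sequence, searched by exact letters. Read sums cover counting error only.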

Additional observations from a re-analysis of the deposited data

How the results depend on the processing

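The alternatives were a pseudocount of 0.5 or 5, quantile normalization, TMM factors, no minimum, a minimum mean of 50, no variance trend, edgeR, DESeq2, the replicate block, a term for the library sets, and each library left out. The count of all called genes was 729 (6.92%). A minimum mean of 50 left 6885 genes to test, 25 of them from the list. It called 380 (5.52%), of which 2 were from the list, and Trib3 fell below that minimum and was not tested there. The replicate block gave 476 (4.52%, 2 of the 34, Sel1l lost) and the set term 2791. Leaving out 1 library gave 200 to 2228, or 1.9% to 21.1% of all tested genes. Of these, 0 to 13 were among the 34 genes and 1 to 28 among the 115 other pathway genes. The set term gave 16 and 29, where it called 26.5% of all tested genes. DESeq2 gave 10 of the 115, where it called 951 (9.02%) of all tested genes. The ER folding median was -0.038 (log2) with the set term, and with 1 library left out ran from -0.049 to 0.046. The ATF4-responsive median then ran from 0.60 to 0.76. No gene that was called turned its sign. Of the uncalled genes of the list 10 did under at least 1 alternative (log2, lowest to highest): Phgdh (-0.38 to 0.43), Slc7a5 (-0.66 to 1.096), Xbp1 (-0.68 to 0.79), Manf (-0.47 to 0.68), Syvn1, Atf6, Ern1, Calr, Pdia3 and P4hb. TMM, quantile and the edgeR scaling moved the median of all genes by less than 0.1.

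Same-numbered libraries deviated together for numbers 1 and 2 (r = 0.446 and 0.699) but not for 3 (r = -0.623). The labels do not say whether the numbers pair the libraries. With 3 libraries per group, centred on group means, these correlations cannot decide it. Depth limits Atf3 and Sesn2 most.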
